A study of Mus musculus with 15 samples.

Results

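The genes described here are 37 mouse genes of the cell cycle and of DNA replication, out of 54532 genes in the table of kidney expression values. They were chosen by symbol, and all 37 were found in the table through their Ensembl identifiers in GENCODE M21, an annotation of mouse build GRCm38. By role, 4 genes control the entry from G1 into S phase (Ccnd1, Ccne1, Cdk2 and E2f1), 11 work in DNA synthesis (Pcna, Mcm2 to Mcm7, Rrm1, Rrm2, Tyms and Tk1) and 22 work in mitosis (Foxm1, Mki67, Top2a, Ccna2, Ccnb1, Ccnb2, Cdk1, Cdc20, Plk1, Aurka, Aurkb, Bub1, Bub1b, Mad2l1, Cenpa, Cenpe, Cenpf, Birc5, Kif11, Kif20a, Kif23 and Tpx2). Gene expression was measured by sequencing poly-A RNA from the kidneys of 15 C57BL/6 mice that entered the study as males aged 8 weeks, with 5 mice in each of 3 groups. The control group (C) ate a normal diet. The CKD model group (M) ate a diet with 0.25% adenine for 4 weeks, a feeding model of chronic kidney disease in which adenine crystals injure the tubules, and then the standard diet until week 8. The AA group ate the same diets and was gavaged daily with 30 mg/kg of asiatic acid (AA), a triterpenoid of the plant Centella asiatica, throughout the 8 weeks. The C and M mice were gavaged with the vehicle, DMSO in saline. The labels name no transgene or deletion, and every library came from whole kidney tissue.

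Values are FPKM, the reads on a gene scaled to its length and to the size of the library, and a change is given as a log2 fold change (log2FC), the difference of log2(FPKM + 1) with its standard error (SE), which understates the change of genes with low FPKM. The reads outside the mitochondrial genome that stood behind a library, recovered from the steps between its FPKM values, numbered 6951352 to 13576619 for C mice, 2077645 to 7142900 for M mice and 2225756 to 4271183 for AA mice. Of the gene reads, 53.0 to 62.5% were mitochondrial in C libraries, 64.0 to 86.8% in M libraries and 69.2 to 87.2% in AA libraries. M mice 1 to 3 stood apart, with 11551, 10068 and 12222 genes above 0 against 18695 to 25460 in the other 12 libraries. The library size behind their FPKM was 0.65, 0.77 and 0.65 times their gene reads, against 1.41 to 2.30 times in C libraries. A lower ratio gives a higher FPKM for the same share of gene reads, and its part in the differences below was not tested. M mice 2 and 3 also went against the label "male" in part. Xist, the noncoding RNA of the inactive X chromosome, had 2.55 and 1.45 FPKM there, and at most 0.119 in the other 13 libraries, 9 of which were listed at 0. Ddx3y, a gene of the Y chromosome, was present in every library at 1.63 to 8.04 FPKM. Of other Y genes, Kdm5d was listed at 0 in M mouse 2 alone, and Uty was listed at 0 in M mice 1 and 2. Markers of the proximal tubule summed to 3053 to 12600 FPKM over the C mice, with all 10 markers above 0, and to 93.4 to 541 in the M group, with 5 to 10 above 0. The results below are therefore also given for M mice 1, 4 and 5 alone, which leaves out both libraries with Xist above 1 FPKM, for M mice 4 and 5 alone and for M mice 1 to 3 alone.

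A cell that divides passes from G1 into S phase, copies its DNA, and separates the copies in mitosis. Cyclin D1 (Ccnd1) and cyclin E1 (Ccne1) with their kinases release E2F transcription factors from the retinoblastoma protein, and E2F1 is one of those factors. E2F factors then switch on the genes of DNA synthesis, among them the subunits of the replicative helicase (Mcm2 to Mcm7), the sliding clamp of the DNA polymerases (Pcna) and the enzymes that make nucleotides (Rrm1, Rrm2, Tyms and Tk1). Later, the transcription factor FOXM1 and the MuvB complexes drive the mitotic genes. In the healthy adult kidney few cells divide, whereas injured tubules can divide to replace lost cells, and leukocytes and fibroblasts can divide in the interstitium. In whole tissue, fewer cells of a type and less RNA per cell cannot be told apart.

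The promoters of the 2 later waves differ in known sequence elements, so the windows upstream of the genes are shown for 3 mitotic genes and 1 helicase gene as examples. They are RefSeq sequences on GRCm38.p6, each the 250 bases before the annotated start site, written 5′ to 3′ on the strand of the gene. Capitals mark 3 kinds of element searched on both strands: the cell cycle genes homology region (CHR, here TTTGAA or TTTAAA), which MuvB complexes bind, the CCAAT box (CCAAT), which NF-Y binds, and the E2F element (here TTTCCCGC, TTTGGCGC or TTTCGCGC). On the opposite strand a CCAAT box reads ATTGG and a CHR reads TTCAAA or TTTAAA. The genes are Mki67 (chr7:135716380-135716629, minus strand), Top2a (chr11:99024190-99024439, minus strand), Cdk1 (chr10:69352913-69353162, minus strand) and Mcm6 (chr1:128359706-128359955, minus strand).
Mki67: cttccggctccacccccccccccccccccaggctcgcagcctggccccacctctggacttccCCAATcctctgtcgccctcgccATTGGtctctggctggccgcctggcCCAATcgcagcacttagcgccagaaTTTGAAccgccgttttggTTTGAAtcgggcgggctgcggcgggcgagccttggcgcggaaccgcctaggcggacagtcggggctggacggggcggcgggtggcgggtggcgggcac
Top2a: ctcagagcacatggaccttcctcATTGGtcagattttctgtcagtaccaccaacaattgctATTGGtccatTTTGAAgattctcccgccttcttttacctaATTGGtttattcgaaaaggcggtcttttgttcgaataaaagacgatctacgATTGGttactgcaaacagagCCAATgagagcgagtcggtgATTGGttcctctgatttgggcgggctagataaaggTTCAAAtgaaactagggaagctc
Cdk1: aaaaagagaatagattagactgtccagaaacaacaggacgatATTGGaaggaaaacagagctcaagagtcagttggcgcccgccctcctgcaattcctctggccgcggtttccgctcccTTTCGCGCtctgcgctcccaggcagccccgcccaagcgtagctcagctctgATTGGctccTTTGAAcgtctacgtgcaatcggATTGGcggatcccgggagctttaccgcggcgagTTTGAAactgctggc
Mcm6: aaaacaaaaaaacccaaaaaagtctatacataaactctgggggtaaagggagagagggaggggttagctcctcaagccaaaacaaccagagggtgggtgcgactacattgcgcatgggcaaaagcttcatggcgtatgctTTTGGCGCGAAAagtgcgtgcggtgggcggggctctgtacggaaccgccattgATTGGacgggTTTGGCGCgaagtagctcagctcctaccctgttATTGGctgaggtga
The windows of Mki67, Top2a and Cdk1 each held 2 CHR matches, with 3, 6 and 3 CCAAT boxes. The window of Mcm6 held no CHR match, 2 CCAAT boxes and 3 E2F matches, counted on both strands. No match to one kind of element overlapped a match to another kind.

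Promoter windows were found for 30 of the 37 genes, as 31 windows, since Mcm7 had 2. No entry was found for Tpx2, Aurkb, Ccna2, Kif20a, Mcm4, Foxm1 and Ccnd1. A CCAAT box stood in 15 of 17 windows of mitotic genes (88.2%) and in 9 of 11 windows of DNA synthesis genes (81.8%), against 33.8% of all 32851 promoter windows. The CHR match stood in 11 of 17 mitotic windows (64.7%) and in 3 of 11 DNA synthesis windows (27.3%), against 25.2% of all windows. E2F matches were the reverse, with 3 of 11 DNA synthesis windows (27.3%) and 1 of 17 mitotic windows (5.88%, Cdk1), against 1.53% of all windows. A CHR match together with at least 2 CCAAT boxes was found in 8 of 17 mitotic windows (47.1%) and in 2.36% of all windows. A match is a description of the letters and does not show that a factor was bound in these kidneys.

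**Figure D1:**
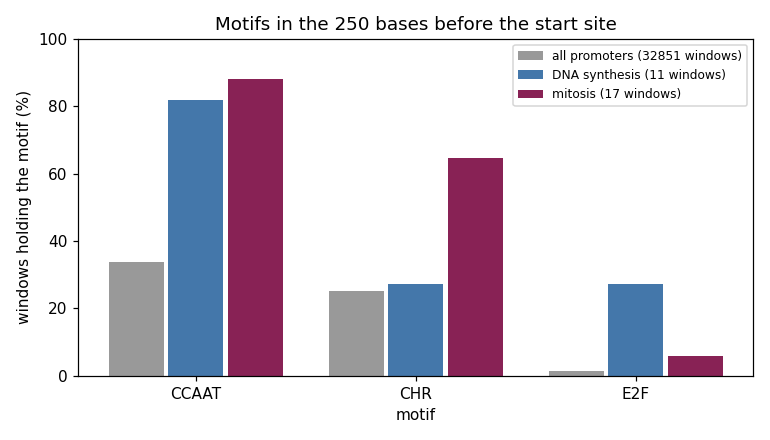
Share of promoter windows (250 bases before the start site, in percent) that held a CCAAT box, a CHR match or an E2F match, for all 32851 windows (grey), 11 DNA synthesis windows (blue) and 17 mitotic windows (purple). The CHR match was found in 64.7% of the mitotic windows and in 27.3% of the DNA synthesis windows, and the CCAAT box in most windows of both.

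In the C group all 37 genes were low. Mean FPKM over the 5 mice ranged from 0.0510 for Ccnb1, which encodes cyclin B1, to 3.13 for Pcna. The M group held the highest values of most genes, and these came from a pair of libraries. Of the 37 genes, 28 had their highest FPKM of all 15 libraries in M mouse 2 or M mouse 3, among them 18 of 22 mitotic genes and 9 of 11 DNA synthesis genes. Both of these libraries lay above each of the other 13 libraries for 21 genes, of which 15 were mitotic and 6 worked in DNA synthesis. The same counts were not made over all genes, so they do not show a pattern particular to the 37 genes. The median FPKM over the 37 genes was 2.08 and 2.51 in M mice 2 and 3, 0.272 in M mouse 1, 0.443 and 0.769 in M mice 4 and 5, 0.208 to 0.451 over the C libraries and 0.322 to 0.719 over the AA libraries. M mouse 1 was unlike M mice 2 and 3, since 14 genes were listed at 0 there, 10 of them mitotic. In the AA group 6 to 11 genes were listed at 0 in a library, against 0 to 3 in the C group. The 2 libraries with the highest cell cycle levels were thus the 2 libraries with Xist above 1 FPKM, and the part of this difference between libraries in the results was not tested.

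**Figure D2:**
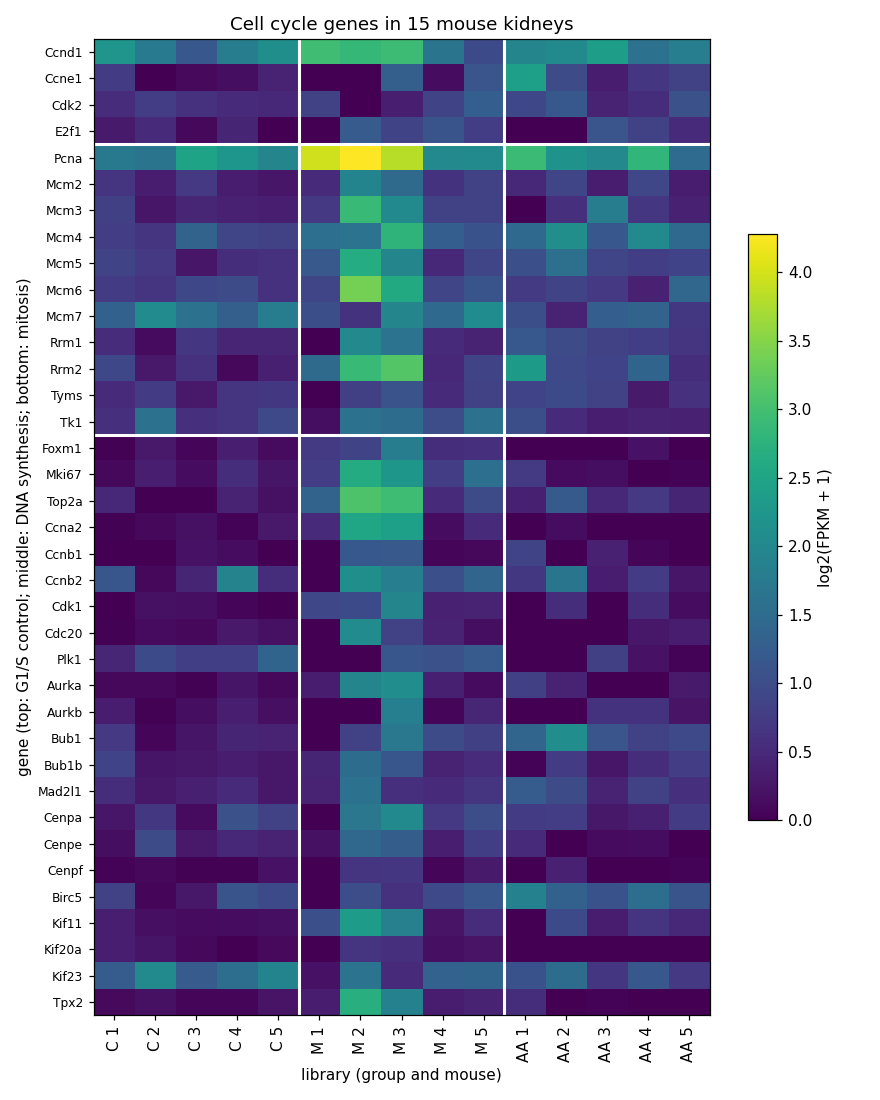
Expression of the 37 genes, as log2(FPKM + 1), in the 15 libraries, with genes in rows by role and white lines between roles and between groups. The brightest cells stand in the columns of M mice 2 and 3, with Pcna, Mcm6, Rrm2, Top2a, Tpx2, Mki67 and Ccna2 among them, while M mouse 1 is dark for many mitotic genes.

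The M vs. C comparison asks which genes differed in the CKD model. It was tested with limma across the 21153 genes that 5 or more of the 10 libraries detected, the 37 genes among them. A called gene had an adjusted p no higher than 0.05 and moved by 1 or more on the log2 scale. None of the 37 genes was called (0 of 37, and 0 with limma voom on the recovered reads), against 1.38% of all genes tested (0.269% higher and 1.11% lower), and the lowest adjusted p was 0.104. At an unadjusted p under 0.05, 14 of 37 genes (37.8%) were higher in the M group and 0 were lower, against 3.7% of all genes higher and 12.8% lower. The fitted value was above 0 for 34 of 37 genes, against 32.1% of all genes. The median log2FC of the 37 genes was 0.49, against −0.12 over all genes tested. The 3 genes below 0 were Mcm7 (−0.19), Plk1 (−0.19) and Kif23 (−0.59). For 5 genes, all mitotic, the M and C libraries did not overlap (Mki67, Top2a, Foxm1, Tpx2 and Cdk1, 5 of 37), while 1.05% of all genes tested were higher without overlap.

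The size of the differences moved with the M mice that entered the fit. With M mice 1, 4 and 5 alone, 26 of 36 genes tested were above 0, 6 had an unadjusted p under 0.05, and the median log2FC was 0.15 against −0.04 over all genes. With M mice 4 and 5 alone, 34 of 36 were above 0, 8 had an unadjusted p under 0.05, and the median was 0.22 against 0.05. The shares of all genes above 0 and at an unadjusted p under 0.05 were not counted in these fits. In both of them 0 of the 36 genes were called, as were 0 of all genes tested, so that the counts of calls say nothing about the 36. With M mice 1 to 3 alone, 14 of 36 genes were called, all higher, and the median was 0.71 against −0.28. Of all genes tested, 19.9% were called in either direction. The share called higher was not counted, so the 14 cannot be set against it.

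Among the mitotic genes, Mki67 (ENSMUSG00000031004, chr7:135689784-135716361, minus strand), which encodes the proliferation antigen Ki-67 on mitotic chromosomes, had 0.0681, 0.287, 0.102, 0.470 and 0.184 FPKM across C libraries 1 to 5, against 0.711, 5.22, 3.78, 0.718 and 1.94 across M libraries 1 to 5. Every M mouse lay above every C mouse, and M mice 2, 3 and 5 lay farthest above. The fitted log2FC was 1.32 (SE 0.37, with adjusted p = 0.104 in limma), and it was 0.76 (SE 0.22) with M mice 1, 4 and 5 alone. Behind these values stood 22 to 160 recovered reads in the C libraries and 83 to 610 in the M libraries. Top2a (chr11:98992943-99024189, minus strand), topoisomerase II alpha, which untangles sister DNA molecules, had 0.408, 0.0110, 0.00668, 0.331 and 0.139 FPKM across C libraries 1 to 5, against 1.57, 7.52, 6.72, 0.431 and 0.992 across M libraries 1 to 5. M mouse 4 was just above the highest C mouse, and M mice 2 and 3 were far above. In M vs. C the log2FC was 1.56 (SE 0.47, with adjusted p = 0.129 in limma), the largest of the 37 genes, and 0.73 (SE 0.22) with M mice 1, 4 and 5 alone.

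Foxm1 (chr6:128362967-128376146, plus strand), the transcription factor of the mitotic genes, had 0.0216, 0.229, 0.0392, 0.287 and 0.0935 FPKM across C libraries 1 to 5, against 0.659, 0.832, 2.51, 0.480 and 0.484 across M libraries 1 to 5. The groups did not overlap, and M mouse 3 was highest. Its log2FC of 0.73 (SE 0.24) did not pass the test (limma adjusted p = 0.159). Cdk1 (chr10:69335146-69352938, minus strand), the kinase that starts mitosis, had 0, 0.141, 0.128, 0.0479 and 0 FPKM across C libraries 1 to 5, against 0.873, 0.950, 2.84, 0.311 and 0.331 across M libraries 1 to 5. All 5 M mice again lay above the C mice, with M mouse 3 highest. Its log2FC was 0.84 (SE 0.26, with adjusted p = 0.143 in limma). Tpx2 (chr2:152847964-152895321, plus strand), a spindle protein that activates Aurora A, had 0.0732, 0.138, 0.0451, 0.0505 and 0.166 FPKM across C libraries 1 to 5, against 0.258, 5.40, 2.69, 0.262 and 0.329 across M libraries 1 to 5. M mice 1, 4 and 5 were a little above the highest C mouse. The fitted log2FC was 1.00 (SE 0.42, with adjusted p = 0.261 in limma), and it was 0.23 (SE 0.08) with M mice 1, 4 and 5 alone.

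The other mitotic genes overlapped between the groups. Ccna2, which encodes cyclin A2, had 4.71 and 4.33 FPKM in M mice 2 and 3 and at most 0.422 in any other library, a log2FC of 1.08 in M vs. C (SE 0.44, with adjusted p = 0.250 in limma). Kif11, the kinesin that pushes the spindle poles apart, ranged from 0.0937 to 0.278 FPKM over the C mice and from 0.163 to 4.11 in the M group, a log2FC of 1.01 (limma adjusted p = 0.197). Aurka, the Aurora A kinase, ranged from 0.0119 to 0.187 and from 0.0886 to 3.26 FPKM. The spindle checkpoint genes (Bub1, Bub1b and Mad2l1) and the centromere genes (Cenpa, Cenpe and Cenpf) had log2FCs from 0.27 to 0.49, none of which passed the test. Plk1, the Polo kinase, and Kif23, a kinesin of cytokinesis, were as high or higher in the C group, with 0.382 to 1.60 against 0 to 1.35 FPKM and 1.35 to 3.11 against 0.153 to 2.08 FPKM.

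**Figure D3:**
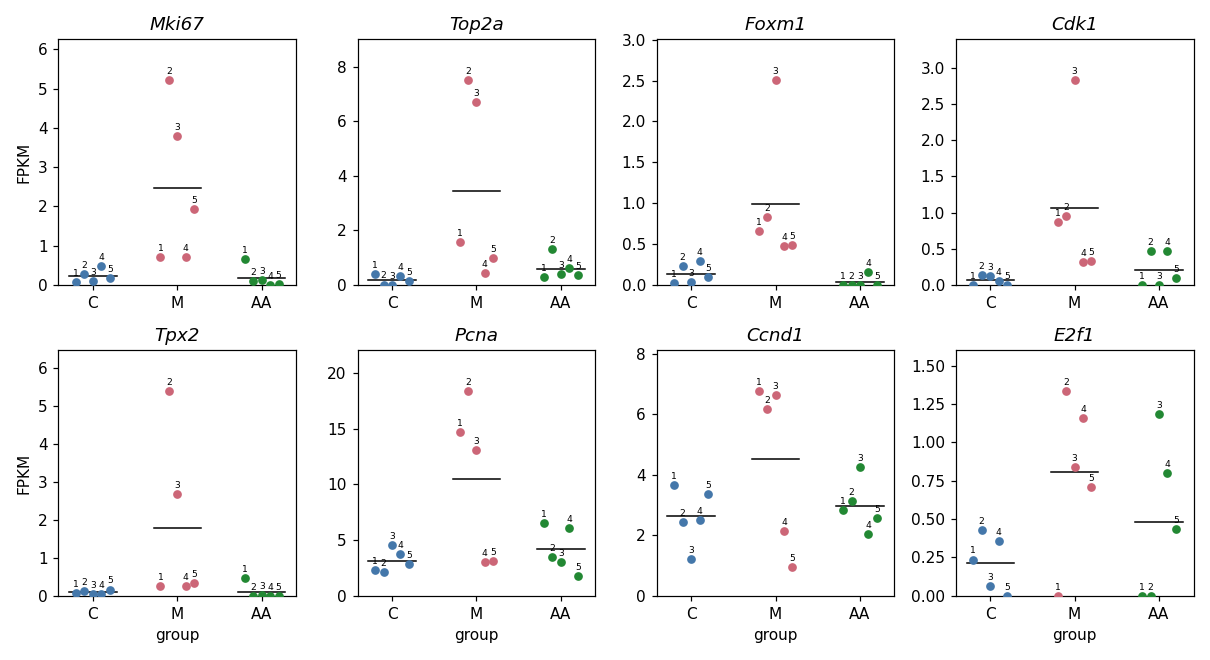
FPKM of 8 genes in each library, with the mouse number beside each point and a line at the group mean (C blue, M red, AA green; n = 5 per group; each gene has its own linear axis). M mice 2 and 3 set the height of the M group for Mki67, Top2a and Tpx2, M mouse 3 for Foxm1 and Cdk1, and M mice 1 to 3 for Pcna and Ccnd1.

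Among the genes of DNA synthesis, Pcna (chr2:132249162-132253314, minus strand) had 2.30, 2.12, 4.60, 3.75 and 2.86 FPKM across C libraries 1 to 5, against 14.7, 18.4, 13.1, 3.04 and 3.14 across M libraries 1 to 5. M mice 1 to 3 lay far above the C group, and M mice 4 and 5 lay within it. In M vs. C the log2FC was 1.22 (SE 0.47, with adjusted p = 0.222 in limma). Of the 31-base words of Pcna, 23.3% also occur elsewhere, most in the pseudogene Pcna-ps2, so that a part of its reads is uncertain. The helicase subunits were split, since 5 of them were above 0 with log2FCs from 0.61 (Mcm2) to 1.00 (Mcm3), while Mcm7 was at −0.19. Of the words of Mcm7, 33.4% also occur in other genes, the highest share of the 37, and 12.6% of its exon bases overlap other genes. Mcm3 ranged from 0.199 to 0.747 FPKM over the C mice and from 0.643 to 6.38 in the M group, and Mcm6 from 0.525 to 0.975 and from 0.850 to 9.37. Rrm2, the regulated subunit of ribonucleotide reductase, ranged from 0.0640 to 0.910 FPKM over the C mice and from 0.406 to 7.73 in the M group, a log2FC of 1.31 (SE 0.49, with adjusted p = 0.208 in limma). Tyms and Tk1, the thymidylate enzymes, had log2FCs of 0.08 and 0.30. None of the 11 genes passed the test, and 5 had an unadjusted p under 0.05.

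Of the 4 genes of G1/S control, Ccnd1 (chr7:144929931-144939925, minus strand) had 3.67, 2.45, 1.23, 2.50 and 3.36 FPKM across C libraries 1 to 5, against 6.77, 6.18, 6.65, 2.14 and 0.939 across M libraries 1 to 5. M mice 1 to 3 lay above all C mice, and M mouse 5 lay below all of them. Its log2FC was 0.45 (SE 0.42, with adjusted p = 0.611 in limma), and 22.3% of its 31-base words also occur in other genes, most in LTO1, whose exons overlap it. E2f1 (chr2:154559407-154569892, minus strand) had 0.237, 0.426, 0.0668, 0.356 and 0 FPKM across C libraries 1 to 5, against 0, 1.33, 0.841, 1.16 and 0.711 across M libraries 1 to 5. M mice 2 to 5 lay above the C mice, and M mouse 1 was listed at 0. Its log2FC of 0.53 (SE 0.24) did not pass the test (limma adjusted p = 0.287). Ccne1 and Cdk2, the cyclin E kinase, had log2FCs of 0.22 and 0.08.

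As a mean over genes per library, the DNA synthesis genes stood at 0.84 ± 0.05 in C mice, 1.51 ± 0.65 in M mice and 1.04 ± 0.14 in AA mice on the log2(FPKM + 1) scale (mean ± SD, n = 5 each). The M libraries had 1.05, 2.24, 2.18, 0.92 and 1.14 in mice 1 to 5. The mitotic genes stood at 0.37 ± 0.09, 0.92 ± 0.56 and 0.43 ± 0.11, and the M libraries had 0.33, 1.52, 1.51, 0.52 and 0.70. M mice 2 and 3 were highest in both means, and M mouse 1 lay within the C group in the mitotic mean and above it in the DNA synthesis mean. The DNA synthesis mean minus the mitotic mean of a library was 0.46 ± 0.14 in C mice, 0.59 ± 0.16 in M mice and 0.60 ± 0.10 in AA mice. The M and AA groups differed by 0.01 in this balance of S phase against mitotic genes, and from the C group by 0.13 and 0.14, which is less than 1 SD of the C group. The balance depended on the processing. It was 0.53 in AA vs. M with a pseudocount of 0.1, 0.28 when scaled to reads outside the mitochondrial genome and 0.18 with M mice 4 and 5 alone, and in M vs. C it turned to −0.20 with a pseudocount of 0.1 and to −0.041 with M mice 4 and 5 alone. The G1/S control genes stood at 0.74 ± 0.17, 1.06 ± 0.18 and 1.09 ± 0.14. With TPM, which gives each library an equal total and moved the median of all genes from −0.12 to −0.58 in M vs. C and from 0.09 to −0.39 in AA vs. C, the direction turned for the G1/S mean in M vs. C (−0.05), for the balance in M vs. C (−0.16) and AA vs. C (−0.13), and for all 3 means in AA vs. C. Centring each library on its median turned the mitotic mean in AA vs. C (−0.097) and the G1/S mean in AA vs. M (−0.52), and quantile normalization also turned the latter (−0.20). These means describe genes chosen with results known and were given no test.

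**Figure D4:**
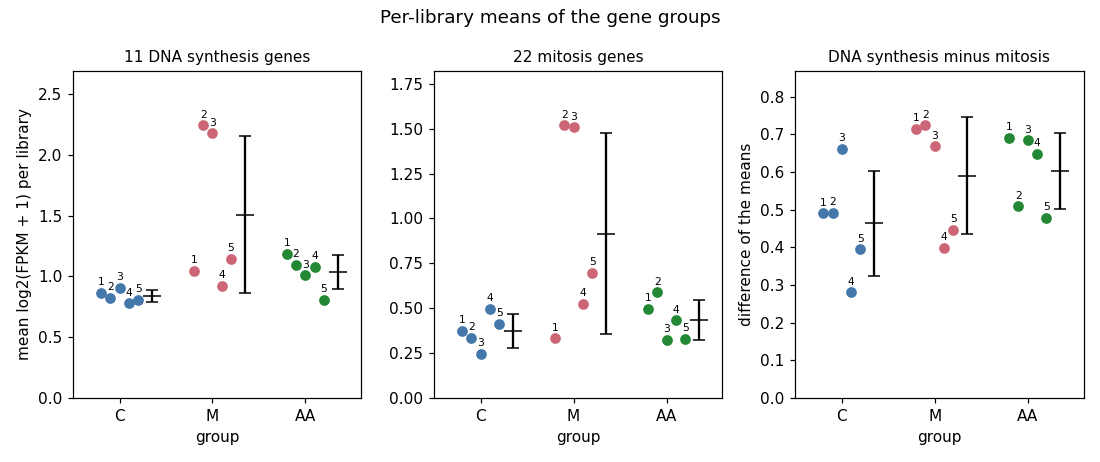
Mean log2(FPKM + 1) per library over the 11 DNA synthesis genes (left) and the 22 mitotic genes (middle), and the difference of both means (right), with the mouse number beside each point and the group mean ± SD in black (n = 5 per group). M mice 2 and 3 reach 2.24 and 2.18 on the left and 1.52 and 1.51 in the middle, while the differences on the right overlap among the 3 groups.

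Most markers of macrophages moved with the groups. The 10 markers summed to 16.9 to 106 FPKM in C mice, 143 to 416 in M mice and 101 to 151 in AA mice, and the sums of 322, 387 and 416 in M mice 1 to 3 were the highest. The sums weigh the marker Lyz2 most. Its mean was the highest of the 10 in each group, at 13.3 FPKM in C mice, 194 in M mice and 86.9 in AA mice. In M vs. C, 4 of the 10 were called, all higher, against 0.269% of all genes called higher. In AA vs. M 1 was called, lower, against 1.07% of all genes called lower. Csf1r, the receptor of a macrophage growth factor, went the other way, with a mean of 10.3 FPKM in C mice, 4.93 in M mice and 3.02 in AA mice. Its log2FC was −1.01 in M vs. C (limma adjusted p = 0.205), and it was called lower in AA vs. C (−1.52, limma adjusted p = 0.00376). In AA vs. C, 9 of the 10 markers had a log2FC above 0. Of the 10, 4 were called higher, against 10.2% of all genes, and Csf1r alone was called lower, against 9.61%. Between 8 and 10 of these markers were above 0 in every library, and Adgre1, Cd68, Ms4a7 and Itgam were at 0 in at least 1. Markers of the injured tubule, 9 in number, summed to 48.0 to 408 FPKM in C mice, 198 to 485 in M mice and 190 to 241 in AA mice, with M mice 2 and 3 highest at 485 and 426. T cell markers summed to 1.74 and 3.26 FPKM in M mice 2 and 3, with Cd3e, Cd3d and the 6 other T cell markers each at 0 in at least 1 library, and to 1.74 to 24.8 in the whole M group. Markers of bone marrow neutrophil precursors summed to at most 5.41 FPKM in any library. Sums of the 8 fibroblast markers were 47.4 to 118 FPKM in C mice and 102 to 401 in M mice. In AA mice they were 265 to 473. M mice 2 and 3 had 132 and 313, and M mouse 4 was highest in its group at 401. The part of these cell types in the levels of the cell cycle genes was not tested.

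The AA vs. M comparison asks which genes differed with AA in mice on the adenine diet. Of the 37 genes, 36 passed the filter and Kif20a, a kinesin of cytokinesis listed at 0 in all 5 AA libraries, did not. Mki67 was the 1 gene called, lower in the AA group, against 12.8% of all 19798 genes tested, of which 11.7% were higher and 1.07% lower. With limma voom on the recovered reads 5 were called, against 19.9% of all genes, and with TPM, with no filter on low values or with library quality weights 0 were called. At an unadjusted p under 0.05, 7 of 36 genes were lower and 0 were higher, all 7 of them mitotic, against 5% of all genes lower and 27.1% higher. The fitted value was below 0 for 29 of 36 genes, against 37.7% of all genes, and the median log2FC was −0.48 against 0.17 over all genes. By role, 17 of 21 mitotic genes, 10 of 11 DNA synthesis genes and 2 of 4 G1/S control genes were below 0. Mki67 and Foxm1 were lower without overlap between the groups, as were 1.31% of all genes tested.

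Mki67 had 0.657, 0.0882, 0.113, 0 and 0.0247 FPKM in AA mice 1 to 5, against 0.711 to 5.22 in the M mice. AA mouse 1 lay close to M mice 1 and 4, and the other 4 AA mice lay within or below the range of the C group. Mki67 fell by 1.39 on the log2 scale in AA vs. M (SE 0.38, with adjusted p = 0.0216 in limma). The adjusted p was 0.0512 without M mouse 3, and with M mice 1, 4 and 5 alone the difference was −0.83 (SE 0.25, with adjusted p = 0.0721 in limma), which is not called. Foxm1 was listed at 0 in AA mice 1, 2, 3 and 5 and had 0.152 FPKM, or 18 recovered reads, in AA mouse 4, against 0.480 to 2.51 in the M mice. The difference of −0.87 (SE 0.23, with adjusted p = 0.0192 in limma) passed the p threshold and not the fold threshold. Since only AA mouse 4 was above 0 in its group, Foxm1 passed the filter on low values only through the M libraries. Its direction is thus not independent of the filter. With M mice 1, 4 and 5 alone, Foxm1 failed the filter on low values and has no test.

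The other genes described above were lower in the AA group or near the M group without passing the test. Top2a had 0.293, 1.30, 0.392, 0.631 and 0.365 FPKM in the AA mice, overlapping M mice 4 and 5, and its log2FC was −1.14 (SE 0.48, with adjusted p = 0.115 in limma). Tpx2 had 0.471, 0, 0.0285, 0 and 0 FPKM, with AA mouse 1 above M mice 1, 4 and 5, and a log2FC of −1.01 (SE 0.42, with adjusted p = 0.110 in limma). Cdk1 had 0, 0.472, 0, 0.473 and 0.101 FPKM and a log2FC of −0.67 (SE 0.29, with adjusted p = 0.123 in limma). Ccna2 ranged from 0 to 0.109 FPKM in the AA group, a log2FC of −1.19 (limma adjusted p = 0.0701), with M mice 2 and 3 far above the other M mice. Cenpe, the kinetochore kinesin, ranged from 0 to 0.426 FPKM in the AA group and from 0.140 to 1.68 in the M group, a log2FC of −0.65 (limma adjusted p = 0.0801).

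Pcna had 6.55, 3.51, 3.05, 6.07 and 1.81 FPKM in the AA mice, below M mice 1 to 3 and around M mice 4 and 5. Its log2FC was −0.94 (SE 0.49, with adjusted p = 0.206 in limma), and it was 0.25 against M mice 4 and 5 alone, the opposite direction. Ccnd1 had 2.84, 3.13, 4.26, 2.04 and 2.56 FPKM and a log2FC of −0.31, and E2f1 had 0, 0, 1.18, 0.801 and 0.433 FPKM and a log2FC of −0.30. Neither passed the test. The 7 genes above 0 were Ccne1 (0.54), Cdk2 (0.16), Tyms (0.07), Bub1 (0.41), Mad2l1 (0.06), Birc5 (0.65) and Kif23 (0.01). Against M mice 1, 4 and 5 alone, 17 of 33 genes tested were below 0 and 16 above, with a median of −0.04 against 0.14 over all genes, and 0 were called against 4.07% of all genes. Against M mice 1 to 3 alone, 25 of 31 were below 0 and 8 were called, all lower, against 22.3% of all genes in either direction. Neither the share of all genes below 0 nor the share called lower was counted in these fits.

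**Figure D5:**
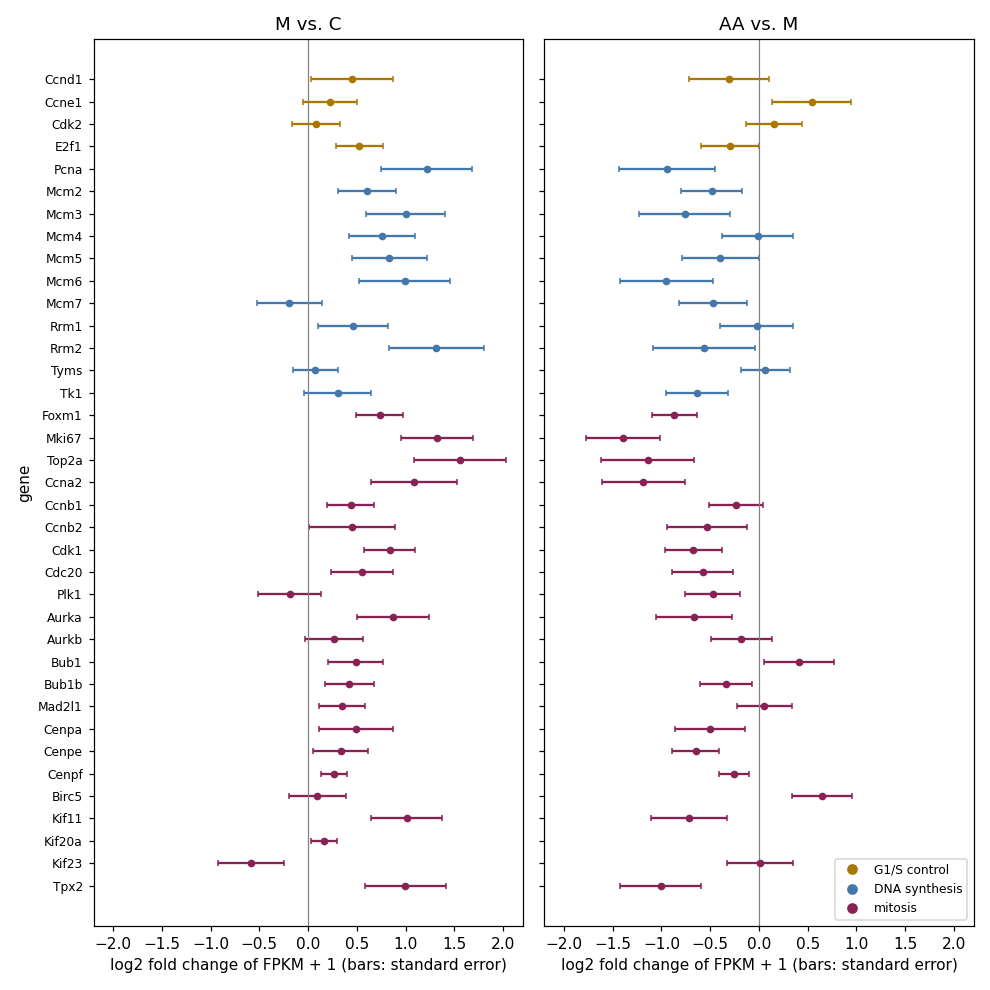
Log2FC of each gene in M vs. C (left, 37 genes) and AA vs. M (right, 36 genes; Kif20a was not tested), with standard errors as bars and colours by role. Most points lie above 0 on the left and below 0 on the right, and since both panels use the same 5 M libraries, the mirror image is not independent.

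The AA vs. C comparison sets AA-treated mice on the adenine diet against normal diet. Of 36 genes tested, 0 were called by limma, against 19.8% of all 21898 genes tested (10.2% higher and 9.61% lower), and 9 were called by limma voom on the recovered reads, a fit that called 35.9% of all genes. At an unadjusted p under 0.05, 12 of 36 genes differed, 9 higher and 3 lower, against 46.8% of all genes. The fitted value was above 0 for 24 of 36 genes, against 56.3% of all genes, and the median log2FC was 0.14 against 0.09. Adjusted p was at most 0.05 for 4 genes, against 35.9% of all genes, with each fold below the threshold. These 4 were singled out after their values were seen. Bub1, the spindle checkpoint kinase, had 0.636, 0.0400, 0.183, 0.366 and 0.343 FPKM across C libraries 1 to 5, against 1.62, 3.29, 1.18, 0.792 and 0.913 across AA libraries 1 to 5, without overlap, as did 11.5% of all genes tested. The log2FC was 0.90 (SE 0.25, with adjusted p = 0.0147 in limma), and it was 1.01 and called without AA mouse 4. Birc5, which encodes survivin, ranged from 0.0439 to 1.17 FPKM over the C mice and from 1.12 to 2.70 in the AA group (log2FC 0.74, limma adjusted p = 0.0398). Mcm4, a helicase subunit, ranged from 0.575 to 1.57 and from 1.23 to 3.34 FPKM (log2FC 0.74, limma adjusted p = 0.0308). Plk1 ranged from 0.382 to 1.60 and from 0 to 0.758 FPKM, a log2FC of −0.67 (limma adjusted p = 0.0250), and 18.7% of its 31-base words belong to other genes as well. When 1 library was left out, the adjusted p stayed at or below 0.05 in 10 of 10 fits for Bub1, 5 for Birc5, 4 for Mcm4 and 5 for Plk1. Of the 5 genes without overlap in M vs. C, Top2a had the largest value in AA vs. C, with a mean of 0.597 FPKM in AA mice and 0.179 in C mice (log2FC 0.42, limma adjusted p = 0.0785). Mki67 (−0.07), Foxm1 (−0.13), Tpx2 (−0.01) and Cdk1 (0.16) had limma adjusted p from 0.223 to 0.952, so that none of the 5 passed the test.

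Another 156 genes of the same processes were counted beside the 37. They comprised 54 genes of origin licensing and the replisome, 22 of G1/S control and 80 of mitosis. In M vs. C, 123 of 153 tested were above 0, against 32.1% of all genes, and 1 was called, higher (0.654%). Of all genes, 0.269% were called higher and 1.38% in either direction. This was Tubb5, a beta tubulin of the spindle and of the cytoskeleton. It had 10.6, 4.16, 8.71, 10.4 and 6.32 FPKM across C libraries 1 to 5, against 22.7, 30.6, 41.3, 17.0 and 19.7 across M libraries 1 to 5, without overlap (log2FC 1.59, SE 0.34, with adjusted p = 0.0393 in limma), and it was not called with M mice 1, 4 and 5 alone (1.26, limma adjusted p = 0.217). The call held in 3 of 10 fits that left out 1 library, without C mouse 1, M mouse 4 or M mouse 5, and the adjusted p reached 0.123 in the others. In AA vs. M, 97 of 151 tested were below 0, against 37.7% of all genes. Of the 151, 5 were called lower and 2 higher, or 4.64% in either direction. Of all genes, 1.07% were called lower, 11.7% higher and 12.8% in either direction. Among those lower were Cks1b, a subunit of cyclin-dependent kinases (4.26 ± 3.97 FPKM over the M mice against 0.444 ± 0.867 over the AA mice), Hmgb2, a chromatin protein (7.37 ± 5.10 and 1.45 ± 1.02), Rpa3, a subunit of the single-strand binding protein RPA (4.79 ± 2.54 and 0.965 ± 0.762), and Pold3, a subunit of DNA polymerase delta (3.50 ± 1.71 and 0.827 ± 0.232; mean ± SD, n = 5 each). Their log2FCs were −1.67, −1.66, −1.50 and −1.22 with limma adjusted p of 0.0376, 0.0246, 0.0179 and 0.0176, and none of the 4 was called against M mice 1, 4 and 5 alone. In the 10 fits that left out 1 library, the call held in 3 for Cks1b (without M mouse 4, M mouse 5 or AA mouse 4), 6 for Hmgb2, 9 for Rpa3 and 10 for Pold3. Cdc25c, the phosphatase that activates Cdk1, moved the other way. It had 0, 0, 0, 2.02 and 2.38 FPKM in the M mice and 11.8, 14.5, 4.12, 6.91 and 8.67 in the AA mice, with no overlap, and 4.36, 0, 0.349, 1.28 and 1.22 in the C mice. It rose by 2.58 on the log2 scale in AA vs. M (SE 0.45, with adjusted p = 0.00391 in limma), and by 2.13 against M mice 1, 4 and 5 alone (limma adjusted p = 0.0425). Cdc25c passed the filter through the AA libraries, and M mice 1 to 3, at 0, had the fewest genes above 0. Cks1b passed it through the M libraries, with AA mice 1, 2 and 5 at 0. Words shared with other genes were counted for the 37 genes only. In AA vs. C, 6 of 148 genes tested were called higher and 4 lower, or 6.76% against 19.8% of all genes (10.2% higher and 9.61% lower).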

How the data were processed

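RNA from 15 kidneys (3 groups of 5 mice by their labels) was sequenced with paired reads of 150 bases. The authors deposited FPKM per gene for 54532 genes, and the submitters' notes name fastp, HISAT2 2.0.5, featureCounts 1.5.0-p3 and mm10. The annotation release is not given in the sources used here, so gene positions and lengths were taken from GENCODE M21, which lacks 37 of the genes. Columns of the authors' own comparisons were not used, and 0 columns of per-sample values were left unmapped.

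The 37 genes, the lists and the restrictions of the M group were chosen with earlier results of these data known. Each of 3 comparisons was fitted with limma 3.58.1 (R 4.3.3, intensity trend) on log2(FPKM + 1) of its 10 libraries, over the genes that 5 or more of them detected, with Benjamini-Hochberg adjustment over all genes tested. Calls needed an adjusted p no higher than 0.05 and a change of 1 or more on the log2 scale, the thresholds of the study. Nothing states how far the mice of a group were handled separately, so p-values measure the spread between these libraries. Whole reads were recovered from the steps of FPKM times exon length. Between 97.6 and 98.9% of the low values tested were whole multiples within 0.02, and 64.2 to 74.5% were even, so that reads were mostly counted in pairs. The FPKM denominator was 1.41 to 2.30 times the gene reads in C libraries, 0.647 to 1.57 times in M libraries and 0.518 to 1.48 times in AA libraries. The main fits were not corrected for this difference between the groups. The strand setting of the counting is not stated, and words of 31 bases shared with other genes were counted from the transcripts. Promoter windows came from RefSeq (GRCm38.p6).

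Genes were described in full where they were called in any comparison, did not overlap between groups in M vs. C or AA vs. M, or were Mki67, Pcna, Top2a, Cdk1, Ccnd1 or E2f1. Of the wider lists, up to 4 called genes per list with the largest change in AA vs. M or M vs. C were named. Bub1, Birc5, Mcm4, Plk1, Csf1r and the genes of the sex chromosomes were named after their values were seen, as were the genes given as examples by their ranges, and the fit with M mice 1, 4 and 5 alone was added then. The alternatives were another pseudocount (0.1), other filters, TPM, scaling to reads outside the mitochondrial genome, quantile normalization, centring, all 15 libraries in one fit, quality weights, no trend, the mouse number as a block, limma voom on the recovered reads, and leaving out each library or some of the M mice. In data simulated for M vs. C over 22186 genes, 162 of 200 genes changed by a log2 of 2 were called (81.0%), with 3 unchanged genes called. Tables and plots were made in Python 3.11.15 with pandas 2.3.3, matplotlib 3.10.9, scipy 1.17.1 and numpy 2.4.6.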

Additional observations from a re-analysis of the deposited data

Results flagged for a closer look

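In 9 of 51 groups of 5 values examined, 1 library stood apart from the other 4 by Dixon's criterion (a gap of over 0.71 of the range of the group). Chance would give 2.55 if the values were normally distributed and the groups independent. Many values here lay near 0 and the groups shared libraries, so the 9 cannot be compared with chance. M mouse 3 stood above the other M mice in 4 of these, with a mean of 1.37 over the G1/S control genes on the log2(FPKM + 1) scale (next 1.03), 2.51 FPKM for Foxm1 (next 0.832), 2.84 FPKM for Cdk1 (next 0.950) and 5.85 FPKM for Mcm4 (next 2.08). M mouse 3 is one of the libraries with Xist above 1 FPKM. AA mouse 1 stood above the other AA mice with 0.657 FPKM for Mki67 (next 0.113) and 0.471 FPKM for Tpx2 (next 0.0285). Foxm1 had 0.152 FPKM in AA mouse 4 and was listed at 0 in the other AA mice. Plk1 had 0.758 FPKM in AA mouse 3 (next 0.155), and Mcm4 had 1.57 FPKM in C mouse 3 (next 0.856).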

How the results depend on the processing

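Among the 37 genes, 0 were called in M vs. C, 1 in AA vs. M and 0 in AA vs. C, and these counts moved with the processing. The shares of all genes in this paragraph count calls in either direction. In M vs. C, 2 were called (Mki67 and Top2a) with all 15 libraries in one fit (3.72% of all genes called) and 14 with M mice 1 to 3 alone (19.9%). In AA vs. M, 0 were called without a filter, with TPM, with quality weights, with M mice 4 and 5 alone and with M mice 1, 4 and 5 alone. Those settings called 6.27, 2.13, 12.4, 8.62 and 4.07% of all genes. There, 3 were called with a pseudocount of 0.1 (18.1% of all genes) and with scaling to reads outside the mitochondrial genome (18.4%), 2 with quantile normalization (11.5%), 8 with centring (14.2%), 4 with all 15 libraries (14.7%), 5 with limma voom (19.9%) and 8 with M mice 1 to 3 alone (22.3%). In AA vs. C, 3 were called with a pseudocount of 0.1 (34.1% of all genes), 3 with TPM (31%), 4 with scaling to reads outside the mitochondrial genome (32.4%) and 9 with limma voom (35.9%). Leaving out 1 library gave 0 to 0, 0 to 3 and 0 to 1 calls in the 3 comparisons. Of the single values, 1 reversed, Pcna in AA vs. M with M mice 4 and 5 alone (0.25). The cause of these changes was not tested. With the mouse number as a replicate block, 0, 1 and 0 genes were called. Deviations of same-numbered mice correlated at −0.23 to 0.17 in M vs. C, −0.075 to 0.14 in AA vs. M and −0.11 to 0.13 in AA vs. C, so the numbers were not taken to pair the mice. Low recovered read numbers in the AA libraries and in M mice 1 to 3 limit what a value listed at 0 shows.

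The differences of the means by role, on the log2 scale, moved as follows. The DNA synthesis mean in M vs. C (0.67) was 0.17 with TPM, 0.20 with M mice 4 and 5 alone and 0.20 with M mice 1, 4 and 5 alone, and 0.49 to 0.82 without 1 library. In AA vs. M (−0.47) it was −1.01 with centring, 0.0027 with M mice 4 and 5 alone, −0.0015 with M mice 1, 4 and 5 alone and −0.62 to −0.29 without 1 library. In AA vs. C (0.20) it was 0.38 with a pseudocount of 0.1, −0.36 with TPM, 0.41 with the mitochondrial reads left out, 0.077 with quantile normalization, 0.040 with centring and 0.16 to 0.26 without 1 library. The mitosis mean in M vs. C (0.54) was 1.25 with a pseudocount of 0.1, 1.13 with the mitochondrial reads left out, 0.24 with M mice 4 and 5 alone, 0.145 with M mice 1, 4 and 5 alone and 0.39 to 0.69 without 1 library. In AA vs. M (−0.48) it was −1.20, −0.99, −1.02 with centring, −0.18 with M mice 4 and 5 alone, −0.083 with M mice 1, 4 and 5 alone and −0.63 to −0.33 without 1 library. In AA vs. C (0.06) it was −0.23 with TPM, −0.097 with centring and 0.024 to 0.093 without 1 library. The G1/S mean in M vs. C (0.32) was 0.51 with a pseudocount of 0.1, −0.046 with TPM, 0.60 with the mitochondrial reads left out, 0.70 with centring and 0.24 to 0.37 without 1 library. In AA vs. M (0.02) it was 0.25 with a pseudocount of 0.1, −0.20 with quantile normalization, −0.52 with centring and −0.036 to 0.10 without 1 library. In AA vs. C (0.34) it was 0.77 with a pseudocount of 0.1, −0.085 with TPM, 0.70 with the mitochondrial reads left out, 0.19 with centring and 0.28 to 0.40 without 1 library. The DNA synthesis mean minus the mitosis mean in M vs. C (0.13) was −0.20 with a pseudocount of 0.1, −0.16 with TPM, −0.041 with M mice 4 and 5 alone and 0.081 to 0.18 without 1 library. In AA vs. M (0.01) it was 0.53 with a pseudocount of 0.1, 0.28 with the mitochondrial reads left out, 0.18 with M mice 4 and 5 alone and −0.037 to 0.045 without 1 library. In AA vs. C (0.14) it was 0.34 with a pseudocount of 0.1, −0.13 with TPM, 0.27 with the mitochondrial reads left out and 0.092 to 0.19 without 1 library.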
